A study of Mus musculus with 12 samples.

Results

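Brown adipose tissue of wild-type (WT) mice was described here from 6 arrays, which were all the WT samples among the 12 samples of the series and were chosen by their genotype label alone. The mice were 3 months old, on a C57Bl/6N background and carried no transgene. The other 6 samples were brown fat of SIRT1Tg/Tg mice of the same age and background, called SIRT1tg below, and they serve only as further arrays on which a spread or a difference between arrays could be looked up. Total RNA was converted to biotinylated cRNA and hybridised to Illumina bead arrays, on which each gene is read by 1 or a few short probes. Whether each sample was a separate animal is not stated, so spreads and p-values below describe differences between samples that may be partly technical, and with so few arrays their precision is limited.

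Brown adipose tissue burns fatty acids and glucose to make heat. Its adipocytes are packed with mitochondria, and uncoupling protein 1 (Ucp1) lets protons return across the inner mitochondrial membrane without making ATP, after noradrenaline has raised cyclic AMP and set lipid droplet lipases to work. The tissue also holds a dense capillary bed, nerves, fibroblasts and macrophages, and it lies against skeletal muscle and white fat, so RNA of a whole pad comes from all of these. In such RNA, fewer cells of a type and less RNA per cell cannot be told apart.

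A probe was called detected at a deposited detection p-value under 0.05. Of the 25697 probes, 11476 to 12108 an array (44.7% to 47.1%) were detected, and the median signal before normalisation lay between 98.95 and 107.7. Signals are given below as normalised log2 values, where a probe at background reads a little over 4, and each ± is an SD over the 6 WT arrays. Of 16593 genes with a named probe, 7039 (42.4%) were detected on all 6 WT arrays, 3286 (19.8%) on 1 to 5 arrays and 6268 (37.8%) on none. Across the 7039 genes the signals of pairs of WT arrays correlated at r = 0.968 to 0.987. Each column of signals is named with a number that no label explains, and by it 3 WT arrays fall in a low range and 3 in a high one. The arrays are called WT 1 to 6 in the order of that number, which was not matched to the labels' replicate numbers, so WT 4 to 6 are the high range and WT 1 to 3 the low range. The median correlation was 0.974 for pairs across the ranges, against 0.986 within the high and 0.984 within the low range, and differences that go with the range are described last.

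The defining markers of brown adipocytes were bright on all 6 arrays. Lpl, the lipase that releases fatty acids from circulating triglyceride, read 13.72 at its lowest, 13.94 at the median and 14.12 at its highest, and ranked 4 of 7039 genes by mean signal. Cidea, a lipid droplet protein of brown adipocytes, read between 13.62 and 13.78 with a median of 13.75 and ranked 14. Ucp1 read between 12.80 and 13.79 with a median of 13.47 and ranked 30. Adipoq, which encodes the hormone adiponectin of all adipocytes, read between 12.23 and 13.05 with a median of 12.78 and ranked 77. All 4 markers lay within the brightest 5% of genes (352 genes) on average. Probes differ in how well they bind, so a rank orders probe signals and not numbers of transcripts.

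Genes of the respiratory chain and of lipid metabolism stood at the top of the ranking. The brightest gene was Dbi, which encodes acyl-CoA binding protein, at 14.19 ± 0.03, and its 6 values ran from 14.12 to 14.20. Atp5b, the catalytic beta subunit of ATP synthase, followed at 14.10 ± 0.08 and Fth1, the heavy chain of ferritin, at 13.96 ± 0.08. Among the 30 brightest genes stood Cox6b1, Cox6a1, Cox5b, Cox8b, Cox8a and Cox4i1, all subunits of cytochrome oxidase, the last enzyme of the respiratory chain. Complex I was represented by Ndufb8, Ndufa4 and Ndufa13, complex III by Uqcr10 and Uqcrc2, and ATP synthase also by Atp5j2. Their means ran from 13.43 ± 0.17 for Ndufa13 to 13.88 ± 0.06 for Cox6b1, apart from Atp5b.

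Genes of lipid handling were also among the 30. Pnpla2, which encodes the lipase that opens triglyceride breakdown in lipid droplets, read between 13.74 and 14.00 with a median of 13.90. Scd1, the desaturase that makes monounsaturated fatty acids, read 13.68 ± 0.09. Fatty acid oxidation was present through Acadm, the medium-chain acyl-CoA dehydrogenase, at 13.81 ± 0.10, Etfa, a carrier of its electrons, at 13.56 ± 0.14, and Ech1, an auxiliary enzyme for unsaturated chains, at 13.48 ± 0.08. Gapdh of glycolysis and Idh3g of the citric acid cycle, the ribosomal protein genes Rpl41 and Rpl23, the carboxylesterase Ces1d, the mitochondrial protein gene Chchd10 and the interferon-responsive gene Ifi27 made up the rest. Gapdh and Ucp1 stood out for their spread, with SDs of 0.36 and 0.40, while the other 28 genes had SDs of at most 0.17. Rank 30 (Ucp1, 13.40) and rank 31 (Cox5a, 13.36) were close, so the boundary of this set is arbitrary. Quantile normalisation gives every array the same set of values, which narrows the spread that can be seen at the very top.

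**Figure D1:**
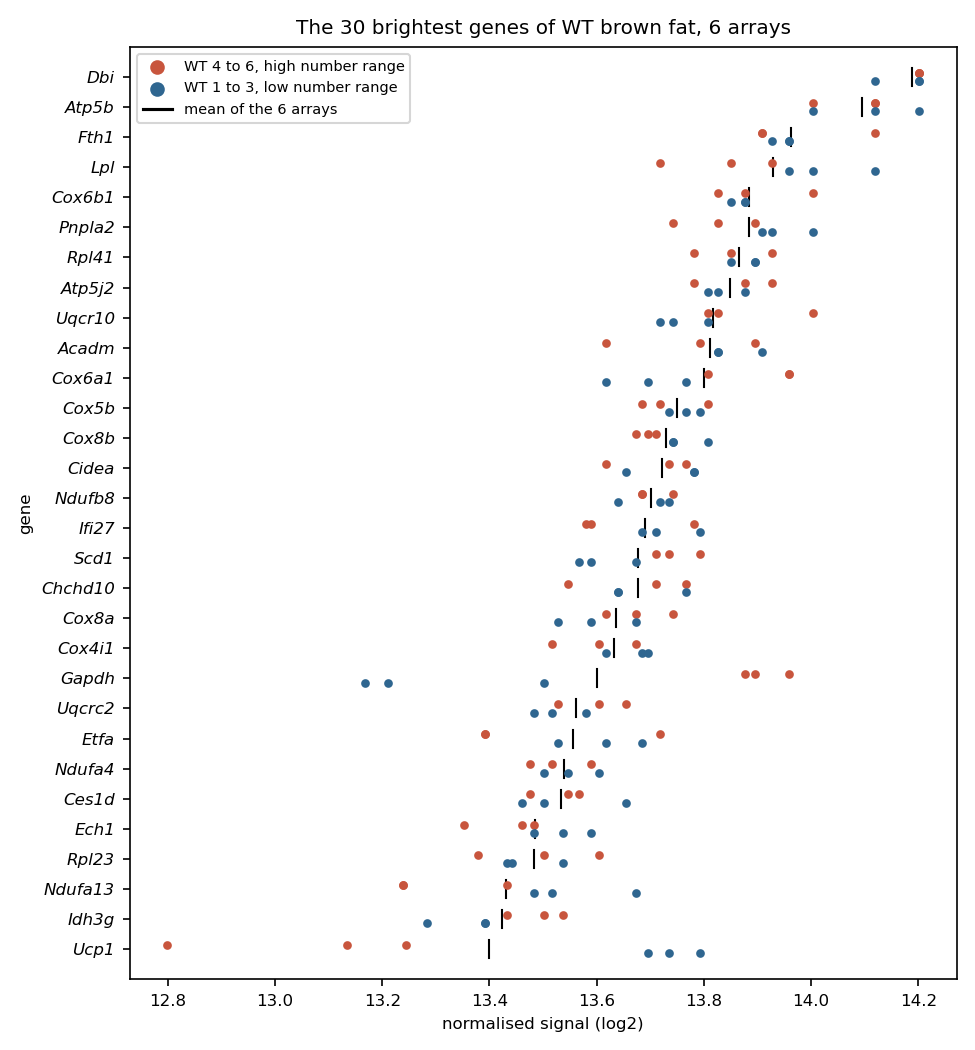
Normalised log2 signal (horizontal axis) of the 30 brightest genes of WT brown fat (vertical axis), with 1 point per array, the high number range in red above the low number range in blue, and a black bar at the mean of the 6 arrays. Most genes span a small part of a log2 unit, whereas Ucp1 and Gapdh spread over 0.99 and 0.79, with the 3 arrays of each range on opposite sides of the mean.

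Counted over whole gene lists, the oxidative pathways were bright. Of 30 respiratory chain genes with a probe, 27 were detected on all 6 arrays and 19 of these lay in the brightest 5%, with a median signal of 12.67 against 6.99 over all 7039 genes and a median SD of 0.12 against 0.21. All 14 fatty acid oxidation genes were detected on all 6 arrays and 10 lay in the brightest 5%, with a median signal of 12.08 and a median SD of 0.21. The proteasome, which breaks down tagged proteins, had 15 of 17 genes on all 6 arrays with a median SD of 0.14.

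The small median SD of the respiratory chain rests on genes in the brightest 5%, and no comparison with equally bright genes was made. Normalisation narrows the spread at the very top of the scale, and its part in this small SD was not tested. Within the same 5%, Acly at rank 117 had an SD of 1.32 and Slc25a1 at rank 338 an SD of 1.14. Of the 8 members outside the brightest 5%, 6 lay in the most variable 5% of all genes, namely Atp5a1, Ndufb2, Cox7b, Sdhd, Ndufb9 and Ndufb10, with SDs from 0.51 for Ndufb10 to 0.57 for Atp5a1. Atp5a1, the alpha subunit of ATP synthase, read 8.84 on WT 6 and between 9.81 and 10.51 on the other 5 arrays. Ndufb9 of complex I read 8.79 on WT 6 and between 9.64 and 10.44 elsewhere. Sdhd, a membrane anchor of succinate dehydrogenase, read 7.74 on WT 6, 8.08 on WT 5 and 9.26 on WT 1. In all 6 of these genes WT 6 gave the lowest signal, and their mean signals (7.31 to 9.88) were below the list's median. Atp5b and Ndufb8, of the same complexes, read 14.12 and 13.74 on WT 6 and were not low there. WT 6 also had the lowest number of detected probes (11476) and the lowest median raw signal (98.95), and the part of array quality in this pattern was not tested. These 6 genes were picked out after their values were seen.

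Among 72 families of related genes, 70 had at least 2 members with a probe. To allow in part for probe affinity, a member was called leading only where its signal exceeded that of the next member by more than 3.24. That is the 90th percentile of the gap between 2 probes of 1 gene, both detected on all 6 arrays. There were 2883 such probe pairs, and their median gap was 0.99. By that measure 16 families had a leading member. In 14 families 1 member alone was detected on all 6 arrays while another was detected on some of them, and in 5 families 1 member alone was detected on any array. In 30 families no member led, and in 5 no member was detected on all 6 arrays. Of 249 family members with a probe, 143 were detected on all 6 arrays and 62 on none. Listed members without a named probe were not compared, so a lead holds only among the members measured. The gap leaves out probes that failed to detect their gene, and lone members were not held to it. A lead over a member near background, or a lone member, may therefore rest on such a probe.

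Among the mitochondrial families, the uncoupling proteins and cytochrome oxidase subunits 4 and 6b had a leading member. Ucp1 led its family at 13.40 ± 0.40, with Ucp3 next at 7.68 ± 0.11, a gap of 5.72, while Slc25a14 was detected on 4 arrays and Slc25a27 on none. Only 4 of the 5 listed members of this family had a named probe, so the lead holds among those 4. Cox4i1, the general form of cytochrome oxidase subunit 4, read 13.63 ± 0.07 and Cox4i2, a form known from lung, 5.21 ± 0.27. Cox6b1 stood above the testis form Cox6b2 by 8.53. For subunit 6a, Cox6a1 was detected everywhere at 13.80 ± 0.14, while Cox6a2, the form of striated muscle, gave 7.80, 8.96 and 4.21 on WT 4, 5 and 6 and 7.05, 7.23 and 4.49 on WT 1, 2 and 3, and was detected on 4 of the 6. For subunit 7a, Cox7a1, a form of muscle and brown fat, read 13.35 ± 0.12, above Cox7a2l at 10.15 ± 0.09 and Cox7a2 at 8.03 ± 0.37, just short of the gap required. For subunit 8, Cox8b (13.73 ± 0.05) and Cox8a (13.64 ± 0.08) could not be ordered, and Cox8c was not detected. Of the adenine nucleotide translocases, which exchange ADP for ATP across the inner membrane, Slc25a5 read 12.50 ± 0.12 and Slc25a31 was not detected. Only these 2 of the 3 listed translocases had a named probe.

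Of the families of nuclear regulators, the PPAR receptors and the C/EBP factors had a leading member. Pparg, the nuclear receptor that drives adipocyte differentiation, read 11.06 ± 0.19 and led over Ppara (6.98 ± 0.18), while the probe for Ppard was detected on no array. Cebpb read 11.25 ± 0.28 and Cebpa, its partner in adipocyte differentiation, 7.33 ± 0.29. Of the PGC-1 coactivators, which switch on mitochondrial genes, Ppargc1b read 10.24 ± 0.21 and Ppargc1a 8.36 ± 0.47, a gap of 1.88 that does not separate them. Esrra, a nuclear receptor that works with the PGC-1 proteins, was the only estrogen-related receptor on all 6 arrays (9.86 ± 0.41). The probes for Esrrg, another such receptor, and for Prdm16, a determinant of brown adipocyte identity, were detected on no array. Ebf2, which marks brown preadipocytes, read 7.60 ± 0.20, with Ebf1 and Ebf3 below it and no lead. Thyroid hormone acts strongly on brown fat, yet in these families no gene was detected throughout: Thra was detected on 5 arrays and Thrb on none, and the deiodinase Dio2, which activates the hormone, on 1, at 4.61 on WT 1.

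Signalling families often rested on several members. The beta-adrenergic receptors had no named probe and were not analysed here. Of 9 adenylyl cyclases, which make cyclic AMP, Adcy6 (8.75 ± 0.12), Adcy4 (8.19 ± 0.34) and Adcy9 (6.00 ± 0.24) were detected on all 6 arrays with no lead. Prkar1a led the regulatory subunits of protein kinase A at 10.89 ± 0.17, over Prkar2b at 5.88 ± 0.39, and the catalytic subunit genes Prkaca and Prkacb were level at 10.88 ± 0.23 and 10.62 ± 0.20. Pde4d was the only phosphodiesterase of its group on all 6 arrays (7.87 ± 0.39). In the insulin pathway Irs2 (8.65 ± 0.42) and Irs3 (8.07 ± 0.22) were detected and Irs1 was not, and Akt2, the AKT kinase best known for glucose uptake, read 6.14 ± 0.20 while Akt1 was not detected. Flt1 (9.37 ± 0.30) was the only VEGF receptor on all 6 arrays, and Vegfb (11.29 ± 0.27) and Vegfa (9.83 ± 0.30) were the brightest VEGF ligands.

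Of the 16 leading members, 5 belonged to families of fatty acid uptake and storage. Fabp3, a fatty acid binding protein of oxidative tissues, read between 12.07 and 13.52 with a median of 12.74 and led over Fabp5 at 5.30 ± 0.57. The probe for Fabp4, the adipocyte form, was detected on only 3 of the 6 arrays, with signals up to 4.92. Adipoq, also a gene of adipocytes, was bright on all 6 arrays. How well the Fabp4 probe reads its gene was not tested, so the place of Fabp3 above Fabp4 is uncertain. Cpt1b, the muscle form of the enzyme that admits long chains to mitochondria, read 11.48 ± 0.26, while Cpt1a was detected on 1 array and Cpt1c on none. Acsl5 (11.27 ± 0.47) led the long-chain acyl-CoA synthetases, but Acsl1 had no named probe and was not analysed here. Gpat4 (12.10 ± 0.24) led the glycerol-3-phosphate acyltransferases, Lpin1 (8.79 ± 0.39) the lipins, and Angptl4, an inhibitor of lipoprotein lipase, its family at 12.61 ± 0.18. Scd1 was the only desaturase on all 6 arrays, with Scd2 on 4 of them. All 5 perilipins, the coats of lipid droplets, were detected, from Plin4 at 11.90 ± 0.30 and Plin5 at 11.16 ± 0.28 to Plin3 at 7.28 ± 0.32, with no lead. Cidea and Cidec (12.15 ± 0.38) were likewise not separated, and Dgat2 (12.83 ± 0.27) exceeded Dgat1 (9.63 ± 0.44) by 3.20, just short of the gap.

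Several enzymes of glycolysis were bright. Aldoa read 12.96 ± 0.44, Ldha 12.87 ± 0.19 and Pfkl 12.26 ± 0.40, and Hk2, the insulin-regulated hexokinase, was alone on all 6 arrays at 11.04 ± 0.29. Pdk4, which shuts pyruvate out of oxidation when fat is burned, read 12.90 ± 0.21 and led over Pdk2 at 7.98 ± 0.07. Pygl, known as the liver form of glycogen phosphorylase, read 12.00 ± 0.68 and led over Pygb at 8.16 ± 0.20. Me1, the cytosolic malic enzyme that supplies NADPH for fat synthesis, read 10.11 ± 0.90 and led over Me2 at 5.04 ± 0.18. The glucose transporters had no lead: Slc2a4, the insulin-responsive one, read 7.55 ± 0.19 and Slc2a8 6.49 ± 0.13. No monocarboxylate transporter of the 3 on the array was detected on any array.

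Further families concern energy and ion cycling, stress and cell structure. Ckb, the creatine kinase described in creatine cycling of brown fat, was the only creatine kinase on all 6 arrays (9.41 ± 0.26), since Ckm and Ckmt2, forms of muscle, were each detected on 4. Atp2a2, the calcium pump of most tissues, read 10.32 ± 0.25 on all arrays. Mt1, a metal-binding metallothionein, read 13.04 ± 0.33 and Mt2 5.25 ± 0.49. Cav1, which forms caveolae, read 11.65 ± 0.25 and Cav2 6.06 ± 0.29. The leading or lone members were largely kept: between 34 and 35 of the 35 were shared with each of 13 other settings. The lone members, in 14 and 5 families, rest on detection calls, which the other normalisations left unchanged. There only the 16 leads could change, and no setting varied probe affinity. The count of families with a leading or lone member rose to 39 with normexp at offset 50 and to 41 without background correction.

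**Figure D2:**
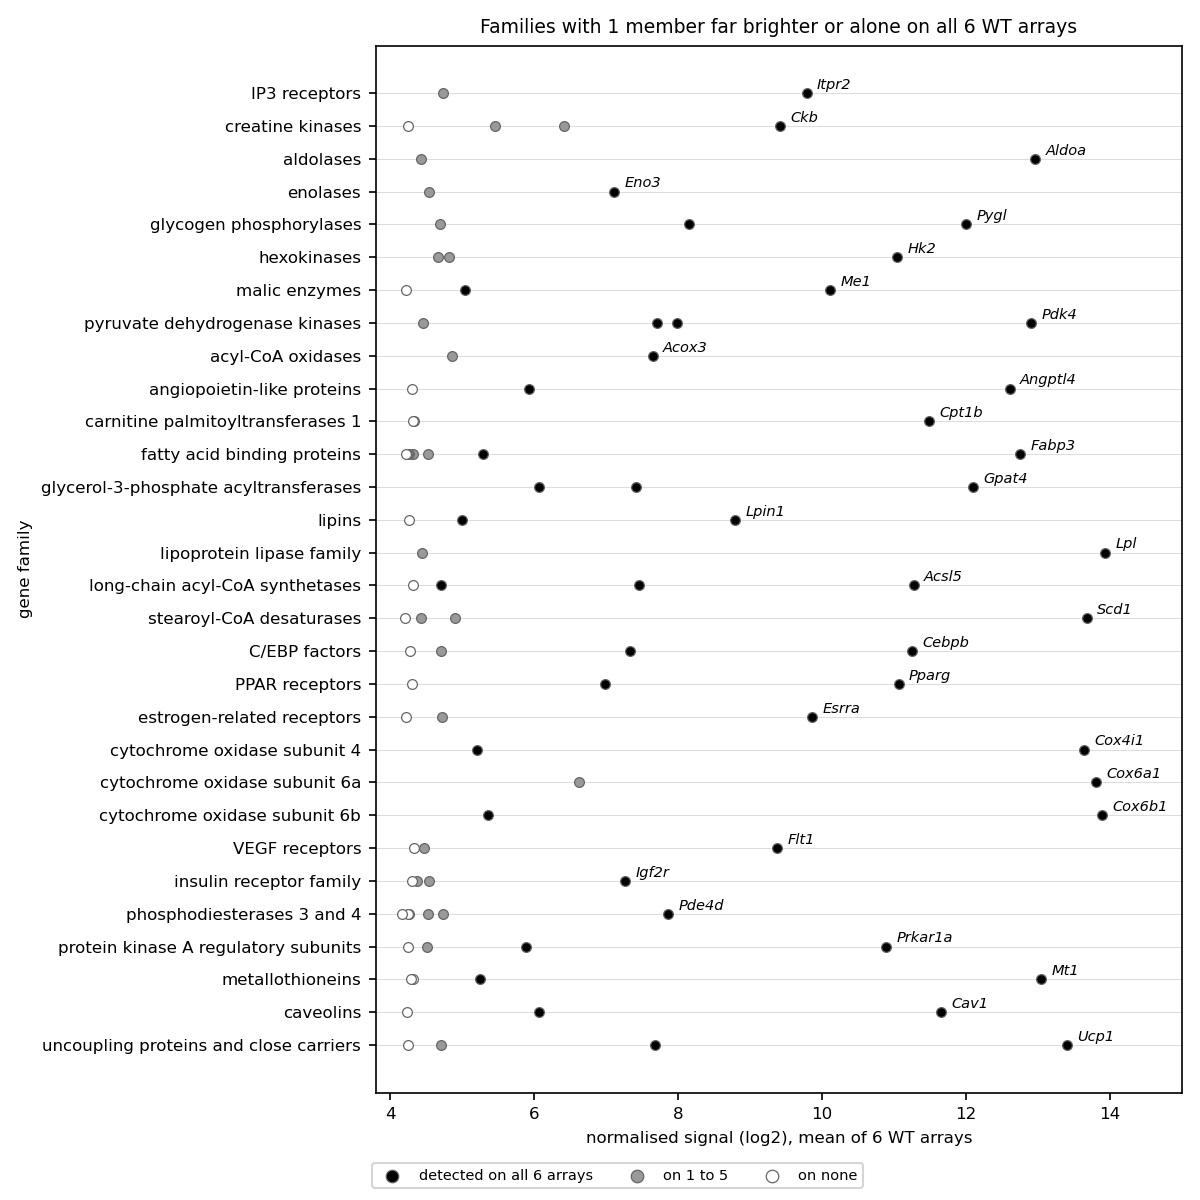
Mean normalised log2 signal over the 6 WT arrays (horizontal axis) of the measured members of the 30 families (vertical axis) in which 1 member led (16) or was alone on all 6 arrays beside another detected on some (14). The 5 families with 1 member detected on any array are not drawn. Black points were detected on all 6 arrays, grey points on 1 to 5 and white points on none. The named member is the brightest listed member detected on all 6 arrays, from Lpl at 13.93 to Eno3 at 7.12. Eno1b, an enolase gene outside the list, was also detected on all 6 arrays, at 7.32, and is not drawn.

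Genes listed as markers of beige or white fat were detected in part. Of 7 listed for beige adipocytes, 2 were detected on all 6 arrays, 2 on 1 to 5 arrays and 3 (Tmem26, Tnfrsf9 and Hoxc9) on none. The 2 on all 6 were the amino acid transporter gene Slc36a2 at 8.20 ± 0.28 and the purine receptor gene P2rx5 at 5.95 ± 0.32. Whether their signal came from beige or from brown adipocytes cannot be told in RNA of a whole pad. Of 9 white adipocyte markers, 2 were detected on all 6 arrays, Lep at 7.16 ± 1.37 and the amino acid transporter gene Slc7a10 at 5.72 ± 0.78, 4 on 1 to 5 arrays and 3 (Retn, Agt and Tcf21) on none. Xist, the transcript of the silenced X chromosome of females, was detected on none, whereas the Y-linked gene Eif2s3y read between 7.99 and 8.92 on all 6. Of 63 marker genes of liver, brain, pancreas, kidney, heart, testis, gut and lung, 48 were detected on no array and 7 on all 6. Albumin (Alb), transthyretin (Ttr) and insulin 2 (Ins2) were among those on none. Absence belongs to the probe as much as to the gene: of 2753 genes detected on all 6 arrays with more than 1 named probe, 992 also had a probe detected on no array. The gamma actin gene Actg1 and the endothelial receptor gene Kdr were on none either, beside Actb at 11.21 ± 0.14 and the endothelial genes Flt1 and Egfl7 at 9.37 ± 0.30 and 10.67 ± 0.29.

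Markers of the other cells of the pad were present in differing amounts. Of 20 endothelial genes, 18 were detected on all 6 arrays, with a median signal of 7.92. All 15 fibroblast and matrix genes were detected throughout, the brightest being the proteoglycan gene Dcn at 11.55 ± 0.33. Of 17 genes listed for macrophages, 16 were detected throughout, with the lysozyme gene Lyz1 brightest at 11.43 ± 0.53. Whether its probe also reads the related macrophage marker Lyz2 was not tested. Red cells were visible through Hba-a1 of alpha globin at 12.78 ± 0.47. Lymphocyte genes were near background, with 1 of 10 T and NK cell genes (Nkg7) and 1 of 7 B cell genes (Cd79b) on all 6 arrays. Keratins 5 and 14 of epithelium were on none.

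Spread between WT arrays was small for most genes and large for a few. The SD had a median of 0.21 over the 7039 genes, with a 5th to 95th percentile of 0.0927 to 0.513. Only 29 genes had an SD over 1, and in 80 the highest and lowest arrays differed by more than 2. Where a gene among the 100 largest SDs had another detected probe (18 genes), the probes followed each other across the 6 arrays, with r of at least 0.932 and a median of 0.977, against a median of 0.667 over all genes with another probe. The SDs of the 6 SIRT1tg arrays were not used in the ranking, but these arrays were normalised together with the WT arrays and share their probes. They had 44 of the 100 genes among their own 100 largest SDs of 7039, and 73 within their most variable 5%. How much of this overlap comes from probe and signal level was not tested. The SD at rank 100 was 0.701 and at the next rank 0.700, so the set has no natural edge.

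**Figure D3:**
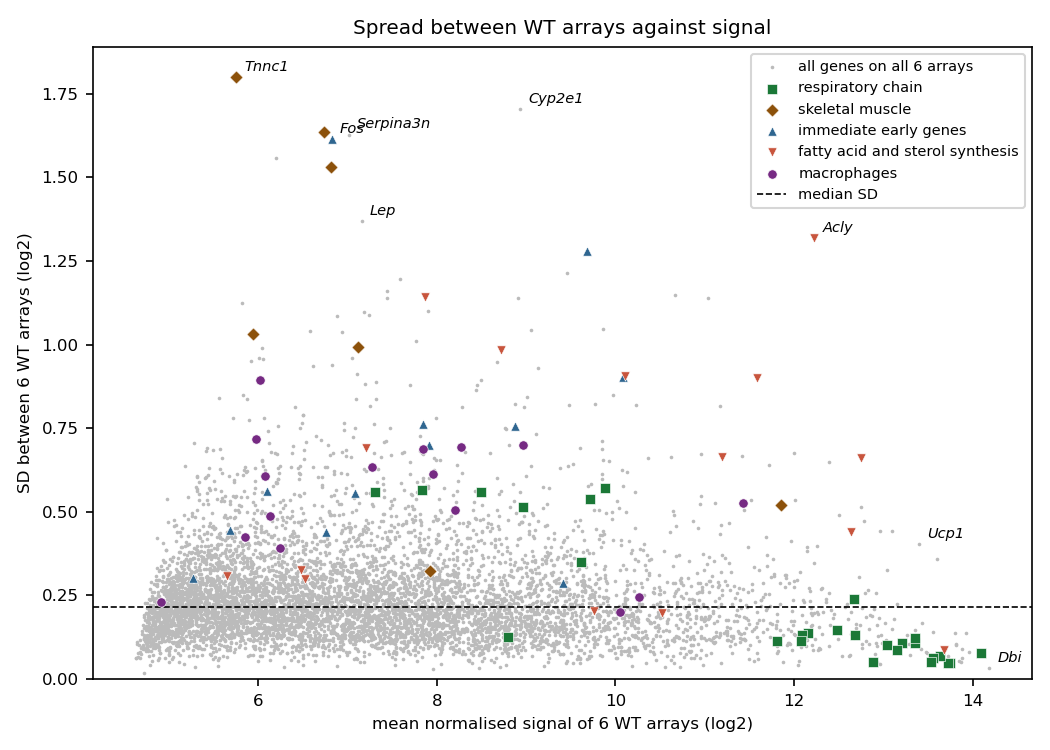
SD between the 6 WT arrays (vertical axis, log2) against mean normalised log2 signal (horizontal axis) for the 7039 genes detected on all 6 arrays, with 5 gene lists in colour and the median SD as a dashed line. Respiratory chain genes gather at the lower right, at the bright end, with a few above the line, while muscle, immediate early and lipid synthesis genes stand high, up to Tnnc1 at 1.80.

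Of the 7 skeletal muscle genes on all 6 arrays, 6 lay in the most variable 5%. Tnnc1, the slow and cardiac form of the calcium sensor troponin C, had the largest SD of all (1.80). It read 9.27 on WT 5 and between 4.53 and 5.84 on the other 5 arrays. Mb, which encodes the oxygen store myoglobin, read 9.24 on WT 5, 4.62 on WT 6, 5.28 on WT 3 and between 6.78 and 7.30 on WT 1, 2 and 4. Myl3, a slow myosin light chain, read 9.53 on WT 5 and 5.37 on both WT 1 and WT 3. Most muscle genes were not detected on every array: of 32 with a probe, 7 were on all 6 arrays, 23 on 1 to 5 and 2 on none.

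Outside that filter the contrast between arrays was wider. Atp2a1, the calcium pump of fast muscle, read 10.99, 11.27 and 4.48 on WT 4, 5 and 6 and 10.09, 10.59 and 4.44 on WT 1, 2 and 3. Acta1, skeletal muscle actin, read 11.00, 11.71 and 4.32 on WT 4, 5 and 6 and 9.29, 10.11 and 4.74 on WT 1, 2 and 3. Ckm, the muscle creatine kinase, was likewise lowest on WT 3 and WT 6, at 4.15 and 4.22, and highest on WT 5, at 8.59. These 3 genes were near background on WT 3 and WT 6 and bright on the other 4 arrays. Of the 30 muscle genes detected on at least 1 array, 25 had their 2 lowest values on WT 3 and WT 6, as did 4.84% of the 7039 genes. This pair of arrays was picked out after the muscle values were seen. The 2 shares are also over unlike sets, since 23 of the 30 muscle genes were detected on 1 to 5 arrays and the 7039 genes on all 6. Not all were near background there: Myl1, a fast myosin light chain gene, read 11.60 on WT 6 and 10.96 on WT 3, and Des of desmin read 7.65 and 7.48. Tnnc1 and Myl3 were lowest on WT 1. With genes detected on at least 3 arrays admitted, 22 of the 100 largest SDs were muscle genes, against 5 with the filter used here. Without WT 5 the count was 3. Eno3 (SD 0.99) and Cox6a2, read above as family members, were also lowest on WT 3 and WT 6, and the part of muscle in their spread was not tested.

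Several other variable genes were highest on WT 3. They were picked out after their values were seen, and the share of all variable genes highest on WT 3 was not computed. Cyp2e1, a cytochrome P450 of liver and fat that oxidises small molecules, read between 7.51 and 11.67 with a median of 8.17, and WT 3 and WT 5 (10.40) stood above the other 4. Trf, which encodes the iron carrier transferrin, had its highest values on the same arrays, 10.40 on WT 3 and 10.35 on WT 5, against at most 8.70 elsewhere. Both are on the list of 15 hepatocyte markers, of which 9, Alb and Apoa1 among them, were detected on no array and 3 on all 6. Serpina3n, an acute-phase protease inhibitor, read 9.31 on WT 3 and 5.34 on WT 2, and the complement gene C4b read 9.36 on WT 3 and 6.29 on WT 2. Mfsd2a, a lysophospholipid transporter that fasting induces in liver and brown fat, read 8.97 on WT 3, 6.87 on WT 2 and between 4.58 and 5.97 on the others. Elovl3, an elongase induced by cold in brown fat, read 8.37 on WT 3 and between 5.63 and 6.69 on the others.

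Macrophage genes also varied, on a different pair of arrays. Of the 16 macrophage genes on all 6 arrays, 9 lay in the most variable 5%, and the median SD of the list was 0.57. Cd163, a scavenger receptor of resident macrophages, read 7.53 on WT 3 and 6.52 on WT 4, against 5.11 to 6.01 on the other 4. C1qb, a complement subunit made by macrophages, read 9.28 on WT 3, 8.94 on WT 4 and between 7.45 and 8.11 on the others. The list's mean deviation from its 6-array average was 0.66 on WT 3 and 0.51 on WT 4, and between -0.50 and -0.12 on the other arrays. The chemokine genes Ccl8 and Ccl9 followed, with 7.63 for Ccl8 on WT 3 and 9.66 for Ccl9 on WT 4 as their highest values. The pair was not particular to macrophages. The fibroblast and matrix list deviated by 0.38 on WT 3 and 0.31 on WT 4, and by at most 0.03 upward elsewhere. Of its 15 genes, 6 lay in the most variable 5%, with a median SD of 0.50.

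Single genes of other kinds were also among the 40 largest SDs. Lep, which encodes the satiety hormone leptin, read 8.38, 8.66 and 7.39 on WT 4, 5 and 6 and 7.50, 5.49 and 5.52 on WT 1, 2 and 3. Dbp, an output gene of the circadian clock, read 9.02 on WT 1 and 5.79 on WT 3, while its activator Arntl read 5.20 on WT 1 and 6.35 on WT 3. Hilpda, a lipid droplet protein induced by hypoxia and fatty acids, read 7.30 on WT 1 and between 9.12 and 9.77 on the other 5. By contrast the 18 endothelial genes had a median SD of 0.26 with none in the most variable 5%.

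**Figure D4:**
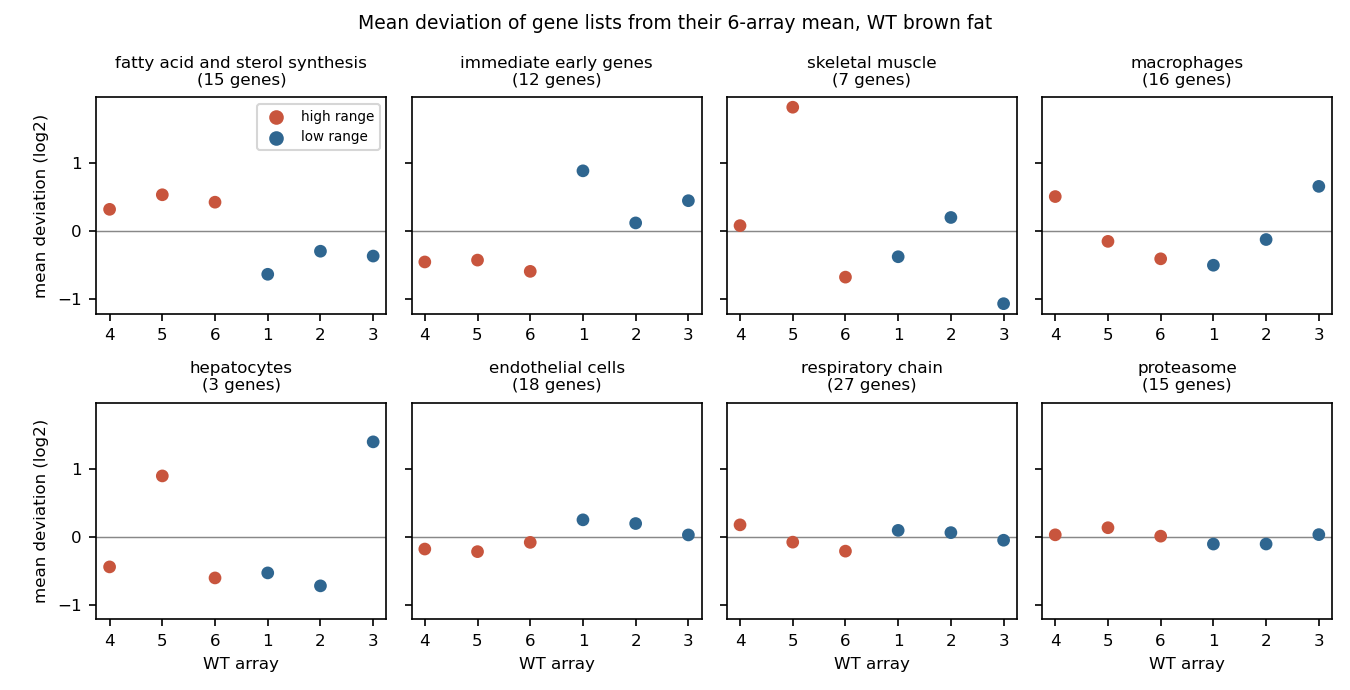
Mean deviation of the genes of 8 lists from their own 6-array mean (vertical axis, log2) on each WT array (horizontal axis), with the high number range in red to the left of the low number range in blue. Muscle runs from -1.06 on WT 3 to 1.82 on WT 5 and macrophages peak on WT 3 and WT 4, while the proteasome stays between -0.11 and 0.13.

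The steadiest genes included bright and dim ones. The smallest SD belonged to Stam, an adaptor of endosomal sorting, at 0.019, with values from 4.69 to 4.73, close to background, where little change can be seen. Usp47, a deubiquitinating enzyme, followed at 0.030 with values from 7.91 to 7.99. Psmd10, an assembly chaperone of the proteasome, read between 8.42 and 8.52, Emc3, of the complex that inserts membrane proteins, between 10.51 and 10.60, and Mrpl13, of the mitochondrial ribosome, between 10.67 and 10.78. Mrpl50, Taco1, Atp5j and Ndufb8, all of mitochondria, were also among the 20 smallest. Robo4, a receptor of endothelial cells, had an SD of 0.038 around 9.20. Of 10 common reference genes on all 6 arrays the median SD was 0.18, and Gapdh was the least steady of them at 0.36.

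Some genes differed between the number ranges of the WT arrays. With limma over all 7039 genes, 110 (1.56%) differed between the high and the low range at an adjusted p under 0.05, with 53 (0.753%) higher and 57 (0.81%) lower in the high range, and 1442 had an unadjusted p under 0.05. Median scaling in place of quantile normalisation called 93 genes and moved the split to 62 higher and 31 lower. The count leaned on every array: without WT 4, 5 or 6 it was 40, 15 or 30, and without WT 1, 2 or 3 it was 35, 41 or 72. On the SIRT1tg arrays, which were not in that fit, the high minus low difference had the same sign for 105 of the 110 genes, with a median of 0.45 along the WT direction against 1.01 in WT. A fit on those arrays alone called 1 gene, with 869 at an unadjusted p under 0.05. The share of all 7039 genes with the same sign in both sets of arrays was not computed, so the 105 of 110 has no yardstick.

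Of 15 genes of fatty acid and sterol synthesis, 13 had a higher mean in the high range and 2 a lower one. At an adjusted p under 0.05, 7 were called higher and none lower, where 0.753% and 0.81% of all genes were called. The list was chosen with earlier results of these data known, so its excess over these shares is not an independent test. The median difference was 0.95 against -0.02 over all genes. On the SIRT1tg arrays the list's median difference was 0.42. Acly, which makes cytosolic acetyl-CoA from citrate, read 13.00, 13.58 and 13.64 on WT 4, 5 and 6, against 10.81, 11.06 and 11.28 on WT 1, 2 and 3. The groups did not overlap, as in 1822 of the 7039 genes, and the difference was 2.36 ± 0.20 (SE; limma adjusted p = 0.00567). Outside the list, Slc25a1, which exports that citrate from mitochondria, differed by 2.03 ± 0.19 and Acss2, which makes acetyl-CoA from acetate, by 2.04 ± 0.20 (limma adjusted p = 0.00567 for both).

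The other members of the list differed by less than Acly. Fasn, the fatty acid synthase itself, read 8.99, 9.10 and 8.27 on WT 4, 5 and 6, against 6.12, 7.34 and 7.35 on WT 1, 2 and 3, a difference of 1.85 ± 0.35 (limma adjusted p = 0.0387). Acaca, Me1, Thrsp, Fdps and Insig1 were the other members called, with differences between 1.15 for Acaca and 1.71 for Fdps. Scd1, whose signal was near the top of the scale, differed by 0.14 ± 0.12 (limma adjusted p = 0.557). Hmgcs1, an early enzyme of sterol synthesis, ran the other way by -0.75 ± 0.15 and missed the threshold (limma adjusted p = 0.0508). Srebf1, which encodes the master regulator SREBP-1, differed by -0.12 ± 0.23.

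Of 12 immediate early genes, which cells switch on within minutes of a stimulus, 11 had a lower mean in the high range and 1 a higher one. At an adjusted p under 0.05, 4 were called lower and none higher, where 0.81% and 0.753% of all genes were called. This list too was chosen with earlier results of these data known, so the excess is not an independent test. The median difference was -0.79, with -0.50 on the SIRT1tg arrays. Fos read 5.79, 5.85 and 4.89 on WT 4, 5 and 6, against 9.19, 7.12 and 8.09 on WT 1, 2 and 3, a difference of -2.62 ± 0.47 (limma adjusted p = 0.0347). Egr1 read 8.86, 8.86 and 7.99 on WT 4, 5 and 6, against 10.62, 10.46 and 11.26 on WT 1, 2 and 3, a difference of -2.21 ± 0.28 (limma adjusted p = 0.0123). Dusp1, a phosphatase that switches MAP kinases off, differed by -1.61 ± 0.16 (limma adjusted p = 0.00589) and the mRNA-decay factor gene Zfp36 by -1.27 ± 0.22 (limma adjusted p = 0.0301). Klf2 alone of the 12 had the opposite sign, with 0.06 ± 0.45.

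**Figure D5:**
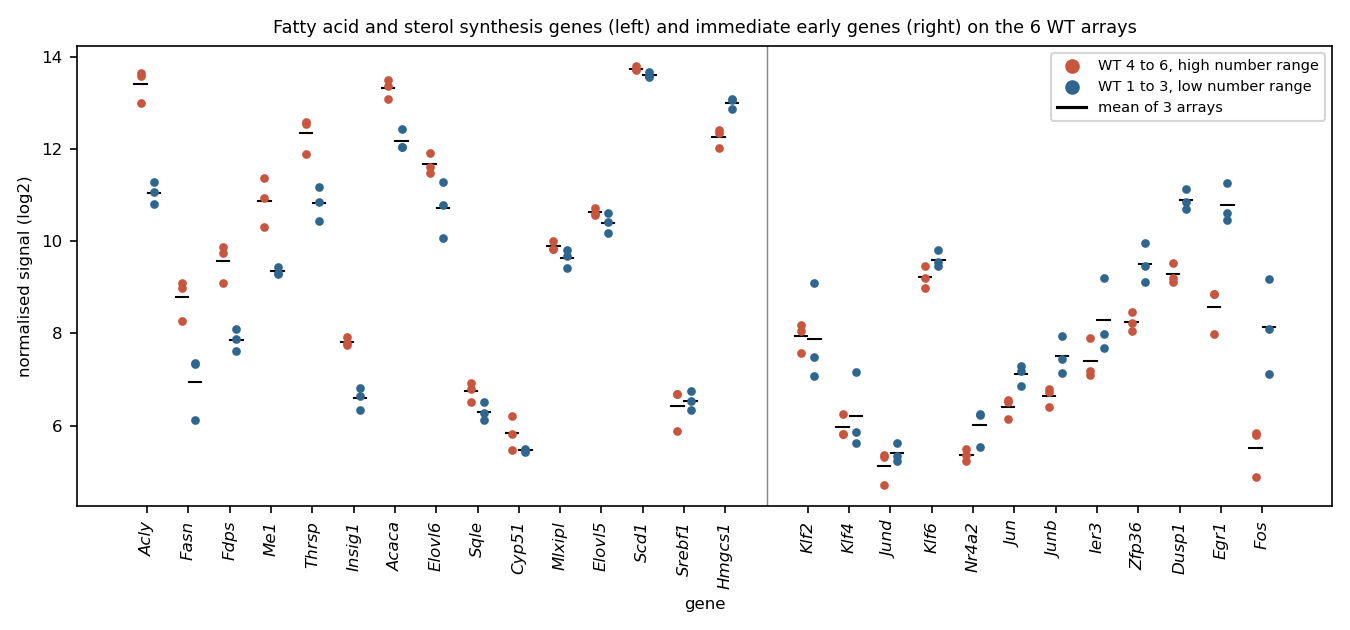
Normalised log2 signal (vertical axis) of 15 fatty acid and sterol synthesis genes and 12 immediate early genes (horizontal axis) on the WT arrays, with the high number range in red to the left of the low number range in blue and black bars at the mean of 3 arrays. The 7 synthesis genes called higher and the 4 immediate early genes called lower do not overlap between the ranges, from Acly at 13.41 against 11.05 to Fos at 5.51 against 8.13 on average. Of all 7039 genes, called or not, 1822 do not overlap between the ranges.

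Ucp1 read 13.14, 12.80 and 13.24 on WT 4, 5 and 6, against 13.70, 13.79 and 13.74 on WT 1, 2 and 3. The ranges did not overlap, as in 1822 of the 7039 genes. The difference of -0.68 ± 0.15 missed the threshold (limma adjusted p = 0.0618), and it was -0.12 on the SIRT1tg arrays. Ppargc1a, with 7.82, 7.89 and 8.15 on WT 4, 5 and 6 against 8.59, 8.85 and 8.85 on WT 1, 2 and 3, was the 1 gene called of 12 regulators and thermogenic genes, at -0.81 ± 0.15 (limma adjusted p = 0.0355), with -1.28 on the SIRT1tg arrays. None of 27 respiratory chain, 14 fatty acid oxidation, 18 endothelial, 16 macrophage and 7 muscle genes was called. At the 1.56% called over all genes, lists of these sizes would hold at most about 1 called gene, so these counts say little about the lists. Endothelial genes had a median difference of -0.36 (16 of 18 lower) and muscle genes of 0.65 (6 of 7 higher), and the part of cell make-up in the differences above was not tested. Among the genes with the smallest p-values outside these lists, S100a11, a calcium-binding protein gene, differed by 1.22 ± 0.11 (limma adjusted p = 0.00567). Crip2, a LIM-domain protein gene, differed by -1.48 ± 0.15 (limma adjusted p = 0.00567) and Slc40a1, which encodes the iron exporter ferroportin, by -1.34 ± 0.15 (limma adjusted p = 0.00869).

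The stretches of 150 bases before the start of 4 genes that moved with the range are shown as examples of the synthesis genes (Fasn and Thrsp) and of the immediate early genes (Fos and Dusp1). They are RefSeq sequences on build GRCm38.p6, read 5′ to 3′ on the gene's strand, and capitals mark the motifs searched on both strands. Each of these 4 holds a motif, whereas the same stretch before Acly, the synthesis gene with the largest difference, held none of those searched.
Fasn (chr11:120824548-120824697, minus strand): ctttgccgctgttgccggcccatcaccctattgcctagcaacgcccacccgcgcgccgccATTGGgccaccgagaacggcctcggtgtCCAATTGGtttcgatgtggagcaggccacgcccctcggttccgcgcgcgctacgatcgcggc
Thrsp (chr7:97417551-97417700, minus strand): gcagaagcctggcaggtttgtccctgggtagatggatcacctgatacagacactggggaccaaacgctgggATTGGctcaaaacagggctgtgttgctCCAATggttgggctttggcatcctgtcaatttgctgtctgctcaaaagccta
Fos (chr12:85473740-85473889, plus strand): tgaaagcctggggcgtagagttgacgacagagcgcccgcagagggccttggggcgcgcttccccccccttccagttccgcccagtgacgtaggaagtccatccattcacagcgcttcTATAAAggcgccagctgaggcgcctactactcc
Dusp1 (chr17:26508473-26508622, minus strand): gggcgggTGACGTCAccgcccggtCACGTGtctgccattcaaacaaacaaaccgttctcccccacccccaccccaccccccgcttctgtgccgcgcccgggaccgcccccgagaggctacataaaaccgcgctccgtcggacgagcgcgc
Fasn and Thrsp hold the CCAAT box in either orientation, and in Fasn a forward and a reverse copy overlap. The motif CCAAT was found before 6 of 12 synthesis genes with a promoter in the table and before 27.7% of all 27025 genes. Fos holds the TATA box TATAAA 33 bases before its start, a motif found before 8.89% of all genes. Dusp1 holds the full cyclic AMP response element TGACGTCA, found before 1.58% of all genes, and the E-box CACGTG, found before 4.92%. Of 11 immediate early genes with a promoter, Dusp1 was the 1 with the full cyclic AMP response element and Fos the 1 with TATAAA. The sterol response element TCACNCCAC, also searched, was found before 2 of the 12 synthesis genes and 0.755% of all genes, and before none of these 4. Among the 5776 genes detected on all 6 WT arrays with a promoter, the shares were 32.2% for CCAAT, 3.98% for TATAAA, 2.87% for TGACGTCA, 7.64% for CACGTG and 0.762% for TCACNCCAC. A match is a stretch of letters and not a measured binding site.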

How the data were processed

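Brown fat RNA of 6 WT and 6 SIRT1tg samples was measured on Illumina bead arrays. The deposited table holds non-normalised bead intensity for each probe and a detection p-value beside it, per the file headers. The submitters' processing notes name GenomeStudio without a version. A second deposited table holds the authors' processed intensity on a linear scale, made by a method that no label or header describes, and it served as an alternative. No column of per-sample values was left unused.

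Signals of all 12 arrays were background-corrected with the detection p-values, quantile-normalised and put on the log2 scale with neqc (limma 3.58.1, R 4.3.3, offset 16). The platform annotation gave a single gene symbol for 23978 of the 25697 probes, and the other 1719 were left out. A gene was detected on an array at p under 0.05, and its brightest probe among those detected on all 6 WT arrays stood for it. SDs are over the 6 WT arrays. The columns name the genotype but not the replicate, so the label replicate numbers could not be used. The high and low number ranges of the WT columns were compared with limma (lmFit, eBayes) over 7039 genes with Benjamini-Hochberg adjustment, after a test on simulated data. Promoters came from RefSeq (GRCm38.p6) and matched 5776 of the 7039 genes by symbol.

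Named genes were the 30 brightest, the 40 most and 20 least variable (the least variable also within the lowest 10% under median scaling), members of the families and gene lists, and up to 5 called genes a direction. The members and lists were chosen with earlier results of these data known.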

Additional observations from a re-analysis of the deposited data

Results flagged for a closer look

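Of 114 values tested for an array apart from the other 5 (89 named genes and 25 gene lists), 7 (6.14%) were past Dixon's 95% critical value, where chance gives about 1 in 20. Dbi read 14.12 on WT 1 and 14.20 on each of the other arrays, which are the second highest and the highest value that quantile normalisation gives an array, so the gap shows a change of rank only. Its raw signal ran from 16634 to 21088, and its SD was 0.116 under median scaling. Fth1 read 14.12 on WT 5 and between 13.91 and 13.96 on the others. Cox6b1 read 14.00 on WT 6 and between 13.83 and 13.88 on the others. Hilpda read 7.30 on WT 1 and between 9.12 and 9.77 on the others. Tnnc1 read 9.267 on WT 5 and between 4.53 and 5.84 on the others. Fam98a, among the 20 least variable genes, read 8.683 on WT 1 and between 8.78 and 8.81 on the others. The mean deviation of the 3 detected Schwann cell and neuron genes was 0.488 on WT 3 and between -0.22 and -0.01 on the others.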

How the results depend on the processing

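The median SD between WT arrays, 0.2143 as reported, was 0.1574 with normexp at offset 50, 0.1204 without background correction and 0.224 with median scaling, and 0.2044 to 0.2221 with 1 array left out. Of the 100 largest SDs, 66 stayed among the 100 largest without background correction and 61 with genes detected on at least 3 arrays admitted. Muscle genes among them, 5 as reported, were then 22, and 3 to 7 with 1 array left out. The 110 genes called between the number ranges became 171 with a trended robust prior and 15 to 72 with 1 array left out, and lay between 93 and 137 under the other settings run. Not run were the range comparison on the processed values, whose columns could not be matched to the numbers, and the range from the second lowest to the second highest array in place of the median SD. No paired analysis was possible because the signal columns carry no replicate number and only WT arrays were compared with each other. Signals near background and near the top of the scale show changes poorly.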
